A study of Mus musculus with 6 samples.

Results

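The comparison described here sets mouse fibroblasts grown on a polyacrylamide gel of 20 kPa, the intermediate stiffness of the study, against the same kind of cells grown on glass. All genes kept by a filter on low counts in the 6 libraries of the study were its members, which came to 16093 of the 57010 genes in the count table. The cells were labelled as fibroblasts from mouse ear, and 500000 of them were cultured for 3 days on glass, which served as the control, or on a gel of 1 kPa or 20 kPa. Each condition had 2 libraries of polyadenylated RNA, made by capture on poly-T beads and random-hexamer priming from cells that had been kept frozen at -80 °C. The study asked how the stiffness of the matrix bears on the epigenetic state of fibroblasts on their way to induced neurons. No reprogramming factor, genotype, strain, age or sex is given in the labels for these libraries. Glass and gel differ in material and surface as well as in stiffness, and these differences cannot be told apart.

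Fibroblasts make and remodel the collagen-rich matrix of the dermis, and they pull on it through actin stress fibres that end in focal adhesions. On a rigid support, stress fibres use up monomeric actin, which frees MRTF co-activators to enter the nucleus and work with the serum response factor SRF on genes of the cytoskeleton. The co-activators YAP and TAZ also move into the nucleus on rigid supports and act through TEAD factors. On soft supports both routes are less active, and fibroblasts are known to form fewer stress fibres there.

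Depth was similar across the study, with 17669006 to 21350111 counts a library, of which 1.25 to 1.55% were from mitochondrially encoded genes. Log2 values of replicate libraries correlated at 0.9917 to 0.9925 across genes, which are not independent replicates. A chi-square of counts between replicates, averaged over genes, was 42.93 for glass, 10.97 for 1 kPa and 3.71 for 20 kPa. It grows with a gene's counts, so a few abundant features can carry much of this mean. It does not show that the spread on glass was wider across genes. The second glass library stood apart in ENSMUSG00000119584, a feature with no name in the annotation used here. This feature took 5.10% of counts there and 0.95 to 2.90% in the others. Lars2, described below, was also higher in the second glass library than in the first. All 18 fibroblast markers passed the filter, with summed values of 43600 and 40500 CPM (counts scaled to a common library size by TMM, the trimmed mean of M values) on glass and 60800 and 57800 CPM on 20 kPa. The labels do not say whether the 2 libraries of a condition came from separate cultures or animals, and every p-value here reflects no more than how far these libraries lie apart, which may be technical spread.

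The change from glass to 20 kPa reached a large share of the transcriptome. With an adjusted p under 0.05 in edgeR's quasi-likelihood test, 6732 genes (41.8% of those tested) changed: 3582 (22.3%) were higher on 20 kPa and 3150 (19.6%) were lower. Rises were larger than falls. The median log2 difference was 0.73 among the genes that rose and -0.41 among those that fell, against 0.02 over all genes tested. Among the genes called, 1369 (8.51% of those tested) were at least 2-fold higher and 481 (2.99%) at least 2-fold lower. By at least 10-fold, 218 rose and 7 fell. A gene could pass the filter through a single condition, so the largest ratios can rest on few counts in the other. Small differences made up much of the count, since 3615 of the called genes (53.7%) moved by less than 1.5-fold. The 2 libraries of one condition lay wholly above or below those of the other for 10865 genes (67.5%). With 2 libraries against 2, an exact permutation test of a single gene cannot give a p below 0.333, so all calls rest on the spread shared across genes. In bulk RNA, here and below, fewer cells of a type and less RNA in each cell cannot be told apart.

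**Figure D1:**
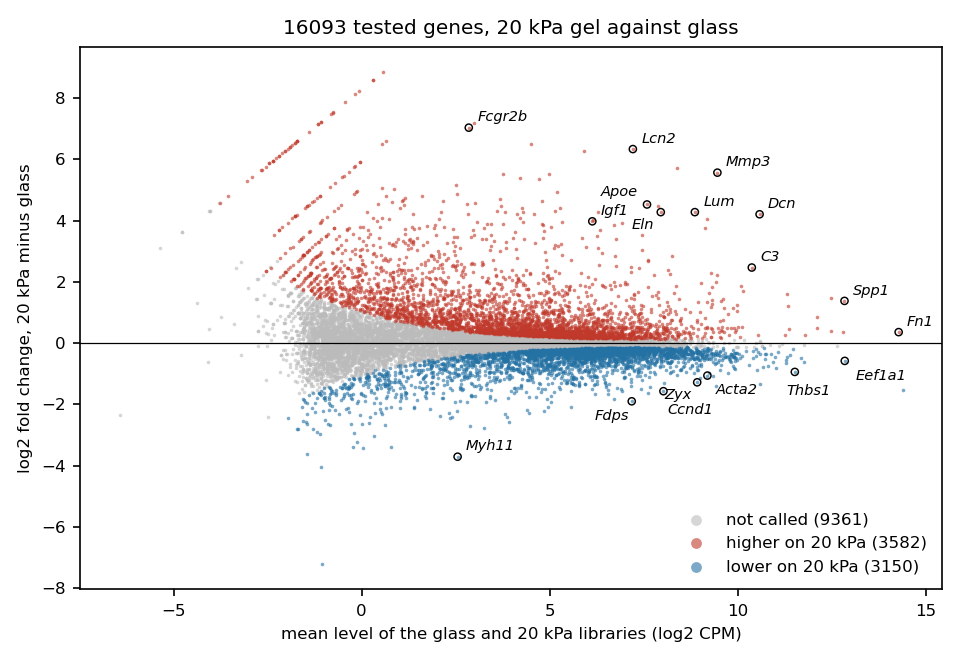
Log2 difference (20 kPa minus glass) of each of the 16093 tested genes against its mean level in log2 CPM, with genes higher on 20 kPa, lower on 20 kPa and not called in separate colours. Lcn2 at 6.34 and Mmp3 at 5.57 lie high above the line at 0, and the deepest labelled fall is Myh11 at -3.71; the slanted streaks at the upper left are genes with few or no counts on glass.

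Direction varied with how many reads a gene drew. Of the 2056 genes with a mean of 100 CPM or more, 488 rose and 960 fell, whereas of the 2725 genes between 1 and 5 CPM, 688 rose and 250 fell. These classes are not corrected for gene length.

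**Figure D2:**
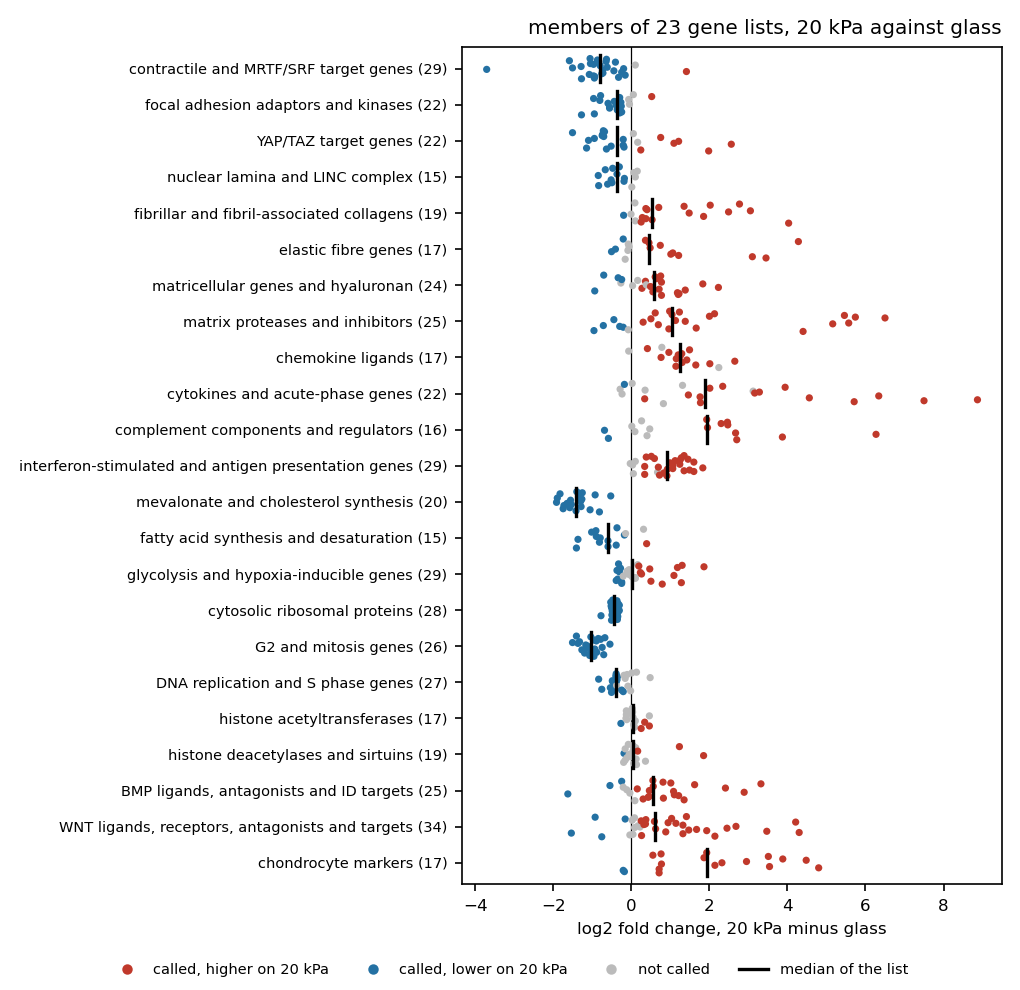
Log2 difference (20 kPa minus glass) of each tested member of 23 gene lists, with 1 point for a gene and a bar at the list's median. Mevalonate and cholesterol synthesis sits lowest, with a median of -1.41, and complement sits highest at 1.94.

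Lcn2 was among the largest rises. It encodes lipocalin 2, an iron-siderophore binding protein of innate defence (chr2:32384633-32388252, minus strand; GRCm38 here and below). It stood at 3.79 and 3.42 CPM on glass and at 294 and 292 CPM on 20 kPa, a log2 difference of 6.34 (SE 0.09; adjusted p = 1.2e-29). Its groups were far apart. Mmp13, which encodes collagenase 3, was at 0.370 and 0.638 CPM on glass (8 and 11 counts) and at 47.7 and 41.7 CPM on 20 kPa. Meltf, which encodes melanotransferrin, was at 1.71 and 0.870 CPM against 63.7 and 60.7 CPM, and Rasl10b at 0.647 and 0.464 CPM against 24.5 and 28.1 CPM. Nrxn2, which encodes the synaptic adhesion protein neurexin 2, rose by 4.95 (SE 0.13), from 2.77 and 1.68 CPM to 71.8 and 69.6 CPM. Genes named as the largest rises had to have no overlap between glass and gel, a condition that 67.5% of all tested genes met.

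Some members of the group were almost absent on glass, which makes any ratio for them imprecise. They included Fcgr2b, an inhibitory antibody receptor, which had 1 and 3 counts on glass and 307 and 283 on 20 kPa. Shisa2 and Kank4 also rose, from 11 and 4 counts to 238 and 229 for Shisa2 and from 6 and 2 counts to 125 and 118 for Kank4.

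The largest falls were smaller in size and began with smooth-muscle myosin. Myh11, its heavy chain (chr16:14194535-14291372, minus strand), was at 10.9 CPM in both glass libraries and at 0.780 and 0.872 CPM on 20 kPa, a log2 difference of -3.71 (SE 0.24; adjusted p = 1.2e-13). Erfe, which encodes the iron-regulating hormone erythroferrone, fell from 17.5 and 15.8 CPM to 2.49 and 2.37 CPM. Gfra2, a receptor for the neurotrophic factor neurturin, fell from 26.1 and 25.3 CPM to 3.8 and 4.75 CPM. Genes named as the largest falls had to meet the same condition of no overlap between the groups. F2rl1, the protease-activated receptor 2, fell by 2.41 on the log2 scale, Msln, which encodes the mesothelial surface protein mesothelin, by 2.23, Adcyap1r1, a receptor of the neuropeptide PACAP, by 2.30, and Ppl, the desmosome-linked periplakin, by 2.20.

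By absolute level, Spp1 and Fn1 were among the largest gains and Eef1a1 and Thbs1 among the largest losses. Spp1, which encodes osteopontin, was at 3970 and 4180 CPM on glass and at 10600 and 10500 CPM on 20 kPa (log2 difference 1.38, SE 0.07); 18.8% of its exonic bases also lie in another annotated gene. Fn1, which encodes fibronectin, was at 18100 and 16700 CPM against 23100 and 21600 CPM (0.36, SE 0.07). Among the losses, Eef1a1, a translation elongation factor, was at 8860 and 8820 CPM against 5960 and 5840 CPM (-0.58, SE 0.07), and Thbs1, which encodes thrombospondin 1, was at 3820 and 3910 CPM against 2050 and 1980 CPM. Lars2, the mitochondrial leucyl-tRNA synthetase, also passed the test with 1100 and 3340 CPM against 704 and 1060 CPM, but its 2 glass libraries differed more from each other than the first did from 20 kPa, and without the second glass library its adjusted p was 0.17.

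Genes of the contractile cytoskeleton were lower on 20 kPa nearly as a block. Of 29 tested contractile and MRTF/SRF target genes, 27 fell and 1 rose, with a median log2 difference of -0.80 against 0.02 over all genes. Acta2, which encodes smooth-muscle alpha actin and marks myofibroblasts (chr19:34241090-34255590, minus strand), was at 795 and 789 CPM on glass and at 374 and 387 CPM on 20 kPa (log2 difference -1.06, SE 0.06; adjusted p = 1.9e-15). Zyx, which encodes the stress-fibre repair protein zyxin (chr6:42349630-42360213, plus strand), was at 709 and 667 CPM against 279 and 287 CPM (-1.28, SE 0.06). Glass was the higher group for both, with no overlap. Cytoplasmic beta actin (Actb) fell by 0.64 on the log2 scale, from 3210 and 2890 CPM to 1920 and 1990 CPM, and gamma actin (Actg1) by 0.87; both have processed copies in the genome among which the authors' counting could have split reads. Fhl2, a LIM-domain co-factor of SRF, fell by 1.29, Tpm1 (tropomyosin 1) by 0.97, Cnn2 (calponin 2) by 0.97 and Vcl (vinculin) by 0.95, although 25.5% of Vcl's exonic bases are shared with another gene. Mylk, which encodes myosin light chain kinase, was the 1 member that rose, from 17.8 and 17.9 CPM to 46.1 and 49.1 CPM.

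Of 7 listed factors (Mrtfa, Mrtfb, Srf, Myocd, Elk1, Elk3 and Elk4), 3 fell and 4 did not pass (median -0.04). The called share of 42.9% was near the 41.8% over all genes. Srf fell from 102 and 100 CPM to 58.5 and 63.5 CPM (log2 difference -0.73, SE 0.07), and Mrtfa by 0.34 (SE 0.07). Mrtfb was at 42.3 CPM in both glass libraries and at 43.9 and 45.1 CPM on 20 kPa (adjusted p = 0.47). Myocd, which encodes the muscle co-activator myocardin, passed the test at adjusted p = 0.031 on fewer than 1 CPM in every library, and lost it without the first glass library, without the first 20 kPa library and with DESeq2 (adjusted p from 0.13 to 0.33).

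Promoter sequences of genes that fell together are shown for the CArG box, the sequence that SRF binds, which was searched by its consensus on both strands of the 250 bases before the RefSeq start. Of 13 genes searched for, 10 had such a sequence and 5 of the 10 held a CArG box. Over the 11169 tested genes with a sequence, 1.45% held it. Acta2, which had the smallest p of the 10, held none, nor did Cnn1, Tpm1, Cald1 and Ccn1. Ccn1 is not in the contractile list. The genes were picked because they fell, so the 5 of 10 is a description, and a match is not evidence of binding. Capitals mark 1 box in each; the sequences are from RefSeq (GRCm38.p6), run 5′ to 3′ along the gene's strand, and no printed motif here or below overlaps another of the 6 motifs searched.
Cnn2 (chr10:79988509-79988588, plus strand): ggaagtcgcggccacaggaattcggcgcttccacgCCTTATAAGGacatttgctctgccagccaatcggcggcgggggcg
Vcl (chr14:20929148-20929215, plus strand): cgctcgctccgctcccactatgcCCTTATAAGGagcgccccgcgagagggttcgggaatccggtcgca
Actg1 (chr11:120348541-120348620, minus strand): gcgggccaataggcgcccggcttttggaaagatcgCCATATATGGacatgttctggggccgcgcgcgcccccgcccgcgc
Srf (chr17:46556200-46556279, minus strand): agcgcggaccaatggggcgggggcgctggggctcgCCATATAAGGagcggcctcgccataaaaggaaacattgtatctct

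Target genes of YAP and TAZ split in direction. Of 22 tested, 14 fell and 6 rose (median -0.36). Ankrd1, a nuclear repeat protein induced by YAP, fell by 1.51 on the log2 scale (SE 0.15), from 12.5 and 13.6 CPM to 4.44 and 4.75 CPM. Ccn1, a matricellular ligand of integrins, fell by 0.71 (SE 0.06), from 981 and 901 CPM to 569 and 582 CPM. Axl, a receptor kinase, fell by 0.75, and F3, which encodes tissue factor, by 1.10.

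Against these falls stood Ccn2, which encodes connective tissue growth factor (chr10:24595442-24598683, plus strand). It was at 598 and 567 CPM on glass and at 1010 and 947 CPM on 20 kPa, a log2 difference of 0.75 (SE 0.06; adjusted p = 6.3e-12); 23.2% of its exonic bases lie in another annotated gene as well. Igfbp3, a carrier of insulin-like growth factors, rose by 2.56 (SE 0.07), from 23.7 and 22.6 CPM to 143 and 131 CPM, and Tgfb2, a ligand of the TGF-beta family, by 1.98 (SE 0.10). Both are also induced by other signals.

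Yap1 itself was at 169 and 172 CPM on glass and at 175 and 169 CPM on 20 kPa (log2 difference 0.01, SE 0.06; adjusted p = 0.91), and Wwtr1, which encodes TAZ, at 161 and 167 CPM against 183 and 176 CPM (0.13, SE 0.06; adjusted p = 0.069). Among their DNA-binding partners, Tead1 fell by 0.50 and Tead4 by 0.90, while Tead2 rose by 0.88 (SE 0.07). Vgll3, a TEAD co-factor, fell by 0.89, from 452 and 471 CPM to 251 and 248 CPM. Over the 20 genes of the Hippo kinases and their factors, 8 fell and 5 rose, and 2 were called higher with DESeq2 or without the first 20 kPa library.

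**Figure D3:**
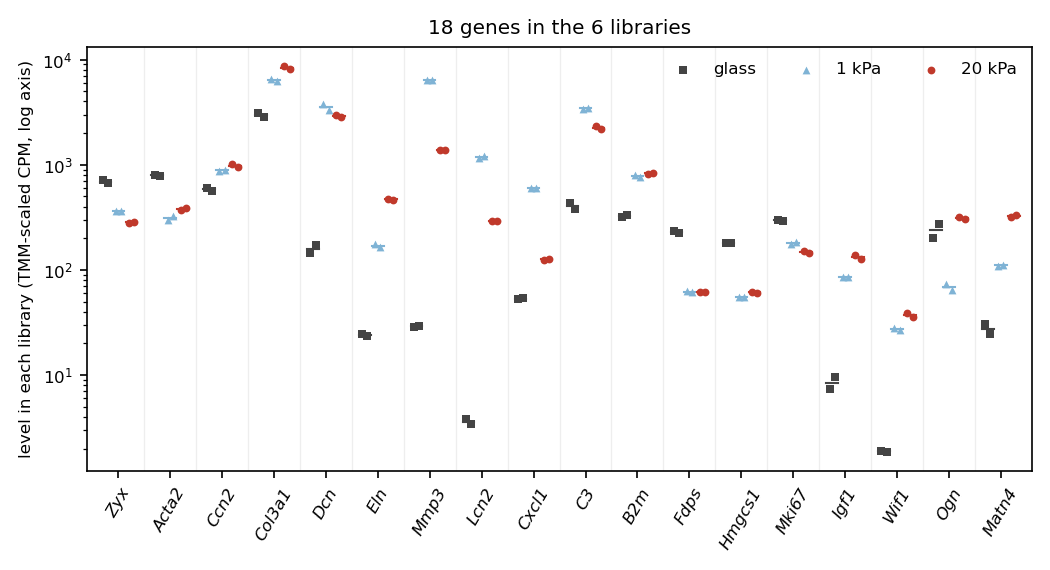
Level in CPM (log axis) of 18 genes in each of the 6 libraries, with the 2 libraries of glass, 1 kPa and 20 kPa as separate points. Acta2 and Zyx sit lower on both gels than on glass, Dcn and Eln sit higher, and Cxcl1 and Mmp3 are higher on 1 kPa than on 20 kPa.

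Focal adhesion genes were lower in 18 of 22 tested cases and higher in 1 (median -0.36). Tln1 (talin 1), which couples integrins to actin, went from 954 and 872 CPM to 630 and 612 CPM (log2 difference -0.56, SE 0.06). Csrp1, a LIM protein of stress fibres, fell by 0.79, Pdlim7 by 0.60 and Parva (alpha-parvin) by 0.44. Enah, an actin-polymerising protein of adhesions, was the member that rose, by 0.52.

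Integrins did not move as a group: of 18 tested, 7 rose, 4 fell and 7 did not pass. The laminin-binding subunits Itga3 and Itga6 fell, Itga3 from 256 and 231 CPM to 105 and 106 CPM and Itga6 from 101 and 92.2 CPM to 43.0 and 41.3 CPM. Subunits that rose were Itga9 (log2 difference 1.36), Itgb8 (1.27), Itgb3 (0.98) and the collagen-binding Itga1 (0.52). The set thus held falls and rises of similar size.

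The small GTPase gene Rhob fell by 1.04 on the log2 scale, from 259 and 243 CPM to 119 and 125 CPM, the formin Diaph3 by 1.27, Rock2 by 0.75 and Rhoa by 0.44. Of the cofilin, profilin and nuclear actin transport genes, 14 of 20 fell and 2 rose, or 1 with DESeq2, without the second glass library or without the first 20 kPa library. Cfl1, which encodes the filament-severing cofilin 1, fell by 0.39, from 759 and 769 CPM to 572 and 593 CPM. Gsn (gelsolin) fell by 0.68 and Pfn1 (profilin 1) by 0.50. The nuclear importer and exporter of actin were close to their glass levels: Ipo9 was lower by 0.18 on the log2 scale (adjusted p = 0.019, and 0.057 to 0.18 in the 4 alternatives in which it was not called), and Xpo6 was at 96.5 and 93.7 CPM against 86.1 and 85.7 CPM (adjusted p = 0.052).

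The nuclear lamina and its links to the cytoskeleton were lower in 11 of 15 tested genes, with 4 not called. Lmna, which encodes the A-type lamins, fell from 1040 and 1000 CPM to 790 and 787 CPM (log2 difference -0.37, SE 0.06; adjusted p = 2.9e-06). Lmnb1 (lamin B1) fell by 0.85, Tmpo by 0.84, Lbr, the lamin B receptor, by 0.67 and Sun2, an inner-membrane part of the LINC bridge, by 0.52. With total counts in place of TMM scaling, with a stricter filter, with limma-voom and without the first glass library, 1 member of the list was called higher.

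Caveolae and stretch-gated channels were lower in 10 of 18 genes and higher in 3. Cav1, the coat protein of caveolae, fell from 678 and 731 CPM to 309 and 329 CPM (-1.14, SE 0.06), and Cavin1 by 0.62. Piezo1, a stretch-gated cation channel, fell by 0.79, from 506 and 448 CPM to 280 and 274 CPM, with 24.6% of its exonic bases shared with another gene. Its relative Piezo2 rose by 1.06 (SE 0.11), from 11.7 and 13.5 CPM to 26.0 and 26.4 CPM. Tubulins and intermediate filaments fell in 11 of 17 genes, among them Tubb2b by 1.32, Tubb6 by 0.80 and Vim (vimentin) by 0.62, with Gfap as the 1 that rose.

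Of 19 fibrillar and fibril-associated collagen genes, 15 rose and 1 fell (median 0.53). Col3a1, the chain of type III collagen (chr1:45311538-45349706, plus strand), was at 3120 and 2870 CPM on glass and at 8630 and 8060 CPM on 20 kPa (log2 difference 1.48, SE 0.07; adjusted p = 4.9e-17). The type I chains changed less: Col1a1 was at 6560 and 6020 CPM against 8150 and 8070 CPM (0.37, SE 0.07), and Col1a2 rose by 0.40. The steepest rises were in minor collagens, Col8a2 from 8.46 and 7.83 CPM to 134 CPM in both libraries, Col27a1 by 2.49, Col14a1 by 2.77 and Col24a1 by 3.05. Col5a2 was the member that fell, by 0.20, a call lost under total-count scaling and without the second 20 kPa library.

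Small leucine-rich proteoglycans, which coat collagen fibrils and set their spacing, included Lum and Dcn. Lum (lumican, ENSMUSG00000036446.6, chr10:97565128-97572703, plus strand) was at 40.5 and 51.1 CPM on glass and at 909 and 858 CPM on 20 kPa. The fitted ratio for Lum was 19.4-fold. Its neighbour Dcn (decorin; ENSMUSG00000019929.17, chr10:97479609-97518143, plus strand) was at 144 and 171 CPM against 2960 and 2870 CPM, an 18.5-fold ratio. In both, the glass libraries lay far under those of 20 kPa. Podn rose by 1.55, Fmod (fibromodulin) by 1.17, Aspn (asporin) by 1.11 and Bgn (biglycan) by 0.85, the last from 3290 and 3000 CPM to 5820 and 5510 CPM. The list of small proteoglycans and basement membrane genes had 14 risers and 6 fallers among 22, with laminin chains among the latter, such as Lama5 (-0.84) and Lama2 (-0.74).

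Elastic fibre genes rose in 10 of 17 cases and fell in 3 (median 0.45). Eln, which encodes elastin (chr5:134702593-134747323, minus strand), was at 24.6 and 23.7 CPM on glass and at 477 and 466 CPM on 20 kPa (log2 difference 4.28, SE 0.07; adjusted p = 1.7e-28). Its microfibril partners Mfap2 and Mfap4 rose by 3.10 and 3.45, and the latent TGF-beta binding proteins Ltbp2, Ltbp3 and Ltbp4 by 1.06, 1.01 and 1.21. Fbn1, which encodes the main microfibril protein fibrillin 1, fell by 0.41 and Ltbp1 by 0.51. The rises thus covered elastin and some of its partners but not fibrillin.

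Matricellular and hyaluronan genes rose in 16 of 24 cases and fell in 4 (median 0.58). Postn (periostin) rose by 2.23, from 225 and 269 CPM to 1190 and 1120 CPM, Tnc (tenascin C) by 1.22 and Has2, a hyaluronan synthase, by 1.83. Enzymes that process and crosslink collagen divided, with 11 of 20 higher and 5 lower. Bmp1, the procollagen C-proteinase, rose by 1.01 and Loxl2 by 0.74, whereas Loxl4 fell by 1.09 and Lox, the main lysyl oxidase, by 0.55, from 2910 and 3030 CPM to 2040 and 2010 CPM.

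Matrix proteases and their inhibitors formed 1 list. Of its 25 tested members, 19 rose and 5 fell (median 1.04). Mmp3 encodes the broad-range protease stromelysin 1 (chr9:7445822-7455975, plus strand). It was at 28.9 and 29.4 CPM on glass and at 1390 and 1380 CPM on 20 kPa. The fitted ratio was 47.5-fold (log2 difference 5.57, SE 0.08, edgeR adjusted p = 1.2e-29). Mmp2, a gelatinase, rose by 1.38, Mmp11 by 2.0, Mmp19 by 1.13, and the aggrecanase-family member Adamts9 by 2.13. Mmp9 had 12 and 0 counts on glass and 225 and 238 on 20 kPa, and Mmp10, which encodes stromelysin 2, had 0 and 1 against 37 and 21. Inhibitors did not move together: Timp1 rose by 0.96, Timp3 fell by 0.96, and Timp2 had a log2 difference of -0.08 without a call. Plau, the urokinase plasminogen activator, fell by 0.72 while Plat, the tissue-type activator, rose by 0.69.

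Of 9 protease and AP-1 related genes searched for the AP-1 motif TGANTCA on both strands of the same 250 bases, 6 had a sequence and 4 held it, against 5.87% of tested genes. Jun and Timp1 held none. The genes were chosen with earlier results of these data known. The share is therefore a description, and a match is not evidence of binding. The metalloproteinases with the motif are shown because they gave some of the steepest rises. Capitals mark the motif.
Mmp3 (chr9:7445741-7445817, plus strand): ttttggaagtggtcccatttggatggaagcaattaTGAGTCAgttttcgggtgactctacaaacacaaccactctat
Mmp13 (chr9:7272444-7272513, plus strand): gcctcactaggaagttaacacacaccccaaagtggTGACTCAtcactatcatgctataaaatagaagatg
Mmp10 (chr9:7502244-7502320, plus strand): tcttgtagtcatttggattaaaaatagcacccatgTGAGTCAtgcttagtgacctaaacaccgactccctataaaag

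Genes of inflammation were higher on 20 kPa than on glass. Of 17 tested chemokine ligands, 14 rose and 3 did not pass (median 1.25); without the first glass library 1 was called lower. Cxcl1, a neutrophil attractant (chr5:90891241-90893115, plus strand), was at 52.4 and 53.9 CPM on glass and at 125 and 128 CPM on 20 kPa (log2 difference 1.25, SE 0.06; adjusted p = 1.4e-16). Cxcl5 rose by 1.14, from 477 and 516 CPM to 1090 and 1100 CPM, and Cxcl12, which retains leukocytes and stem cells, by 1.15, from 562 and 598 CPM to 1310 and 1260 CPM. Cxcl14 rose by 1.42, Cxcl3 by 1.65 and Ccl2, a monocyte attractant, by 0.41.

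Cytokines and acute-phase genes rose in 14 of 22 cases and fell in 1, with a median log2 difference of 1.89, or 1.76 when the 3 members without a count on glass are set at the lower bound that 3 counts a library gives. Saa3 is an acute-phase apolipoprotein made outside the liver (chr7:46711998-46715700, minus strand). It was at 12 and 13.1 CPM on glass and at 635 and 681 CPM on 20 kPa. The fitted ratio for Saa3 was 52.5-fold. Its relatives Saa1 and Saa2 had no count on glass, and 65 and 57 counts for Saa1 and 25 and 22 for Saa2 on 20 kPa, at least 18.9-fold and 7.28-fold higher. Reads may be split among these near-identical copies. Hp (haptoglobin) rose by 3.94, Il1rn, the natural antagonist of interleukin 1, by 3.28, Il33 by 3.16, Lif by 1.76 and Il11 by 2.01. Il6 was at 15 and 18.7 CPM against 43.9 and 48.4 CPM. Csf1, the macrophage growth factor, was the member that fell, by 0.18, a call lost under total-count scaling and without either 20 kPa library.

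Receptors and sensors of these signals rose in 16 of 22 cases and fell in 3. Il1r1 rose by 1.10, from 184 and 191 CPM to 417 and 389 CPM, Lifr by 1.54 and Tlr2, a sensor of bacterial lipoproteins, by 1.33. Il6ra fell by 1.46, from 28.8 and 27.1 CPM to 10.2 and 10.1 CPM. NF-kB subunits and feedback inhibitors went both ways (median 0.35; 11 of 20 higher, 4 lower, the latter 2 with DESeq2, without the first glass library or without either 20 kPa library). Nfkbia, the inhibitor that NF-kB itself induces, rose by 0.50, Relb by 0.74 and Zfp36, which destabilises cytokine transcripts, by 0.67, while Cyld fell by 0.59.

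The NF-kB consensus was searched by name in the same way. Of 18 genes searched for, 12 had a sequence and 5 held a match, against 5.52% of tested genes. Lcn2, Saa3, Mmp3, Mmp13 and C3, which had smaller p than all 5, held none. As for the CArG box, the share is a description and a match is not evidence of binding. Of the 5 with a match, the 4 with the smallest p are shown, with capitals at the match. In Nfkbia the match lies on the opposite strand, so the capitals show its reverse complement.
Cxcl1 (chr5:90891139-90891218, plus strand): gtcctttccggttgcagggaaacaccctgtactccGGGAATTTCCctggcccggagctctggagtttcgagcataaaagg
Il6 (chr5:30013035-30013113, plus strand): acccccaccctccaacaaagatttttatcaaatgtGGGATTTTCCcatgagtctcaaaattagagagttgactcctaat
Cxcl2 (chr5:90903767-90903846, plus strand): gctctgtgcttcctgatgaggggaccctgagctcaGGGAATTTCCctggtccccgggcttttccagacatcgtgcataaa
Nfkbia (chr12:55492648-55492711, minus strand): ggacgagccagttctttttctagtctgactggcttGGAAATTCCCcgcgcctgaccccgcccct

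Complement genes gave the highest median of the lists plotted, 1.94, with 9 of 16 tested members higher and 2 lower. C3, the central component on which all complement routes converge, was at 431 and 382 CPM on glass and at 2310 and 2180 CPM on 20 kPa (log2 difference 2.47, SE 0.07; adjusted p = 9.3e-23). The classical-pathway proteases C1s1 and C1ra rose by 2.46 and 1.93, and C4b by 1.95. Inhibitors rose with them: Serping1, which encodes the C1 inhibitor, went from 53.5 and 50.8 CPM to 347 and 329 CPM, and Clu (clusterin) from 13.2 and 13.6 CPM to 204 and 188 CPM. Masp1, a lectin-pathway protease, and Cd55, a membrane inhibitor, fell by 0.59 and 0.69. Prostaglandin genes rose in 10 of 17 cases and fell in 3, with Ptges, a prostaglandin E synthase, higher by 1.28, Ptgs2 (inducible cyclooxygenase) by 0.73 and Ptgs1 (constitutive cyclooxygenase) lower by 0.69.

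Interferon-stimulated and antigen presentation genes rose in 24 of 29 cases, and the other 5 did not pass (median 0.92). B2m, the light chain shared by class I molecules, was at 315 and 336 CPM on glass and at 822 and 840 CPM on 20 kPa (log2 difference 1.35, SE 0.06; adjusted p = 5.9e-18). The class I heavy chains H2-D1 and H2-K1, which are near-identical in parts of their sequence, rose by 1.45 and 1.25. Oasl2 rose by 1.49, Ifi44 by 1.6 and Ifit3 by 1.24. Irf1, Stat2 and Ifit2 were among those without a call.

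The interferon-stimulated response element, here GAAANNGAAA on either strand, was found in 6 of the 11 listed genes with a sequence, against 3.14% of tested genes. Oasl2, which had the smallest p of the 11, held none. Here too the share is a description and a match is not evidence of binding. Of the 6 with a match, the 4 with the smallest p are shown, with 1 match of each in capitals. In Ifit3 and Ifit1 the match is on the opposite strand and the capitals show its reverse complement.
Ifit3 (chr19:34583372-34583451, plus strand): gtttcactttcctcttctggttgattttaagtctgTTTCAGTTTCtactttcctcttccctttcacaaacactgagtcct
Ifit1 (chr19:34640769-34640848, plus strand): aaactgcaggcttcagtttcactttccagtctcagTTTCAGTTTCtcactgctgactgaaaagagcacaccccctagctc
Bst2 (chr8:71537558-71537637, minus strand): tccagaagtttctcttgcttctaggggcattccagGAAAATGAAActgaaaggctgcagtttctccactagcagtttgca
Isg15 (chr4:156200852-156200931, minus strand): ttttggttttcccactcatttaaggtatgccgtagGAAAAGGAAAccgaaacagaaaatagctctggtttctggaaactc

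Every tested gene of the mevalonate and cholesterol pathway was lower on 20 kPa. All 20 passed the test, with a median log2 difference of -1.41 and a range from -1.92 to -0.53. Hmgcs1, an early enzyme of the route, was at 179 and 181 CPM on glass and at 61.8 and 60.4 CPM on 20 kPa (-1.56, SE 0.06). Fdps, which makes farnesyl pyrophosphate (chr3:89093588-89101959, minus strand), was at 235 and 222 CPM against 61.3 and 61.6 CPM (-1.90, SE 0.06), with 26.7% of its exonic bases shared with another gene. Late enzymes of the sterol branch fell as well, Sqle by 1.42, Lss by 1.65 and Cyp51 by 1.26.

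Of the 17 genes of the SREBP system and sterol uptake, 7 fell, 6 rose and 4 did not pass (median -0.05 against 0.02 over all genes). Insig1, which is induced by SREBP and restrains it, fell by 1.65 and Srebf2, which encodes the sterol-sensing factor SREBP2, by 0.67. Apoe, a lipid carrier that takes part in sterol efflux (chr7:19696109-19699188, minus strand), rose from 16.4 and 15.4 CPM to 363 and 375 CPM. The fitted ratio for Apoe was 23.2-fold. Abca1, the main sterol exporter, had a log2 difference of 0.03 without a call, whereas Abcg1 rose by 0.93. The sterol regulatory element, searched as ATCACNCCAC, was in none of the 7 listed genes with a sequence and in 0.197% of tested genes, which says only that these letters are not in those windows.

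Fatty acid synthesis fell alongside, in 12 of 15 tested genes, with 1 higher (median -0.60). Scd2, a stearoyl-CoA desaturase, went from 1040 and 958 CPM to 381 and 367 CPM (-1.41, SE 0.06). Fads2 fell by 1.37, Acly, which supplies cytosolic acetyl-CoA, by 0.91 and Fasn, the fatty acid synthase, by 0.82. Gpam, an enzyme of triglyceride assembly, rose by 0.39. Of 20 adipogenic and storage genes 14 rose and 3 fell (median 0.74), among them Apod (3.03, from 39.6 and 37.1 CPM to 317 and 310 CPM), Cebpa (2.16), Lpl (1.21) and Fabp4 (1.86), with Fabp5 lower by 1.25. Adipoq, the fat-cell hormone adiponectin, had no count on glass and 8 and 12 counts on 20 kPa.

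Genes of division were lower on 20 kPa. All 26 genes of G2 and mitosis fell, with a median log2 difference of -1.03. Mki67, the proliferation marker Ki-67, was at 297 and 294 CPM on glass and at 150 and 146 CPM on 20 kPa (-1.0, SE 0.06; adjusted p = 4.1e-15). Anln (anillin), which organises the cleavage furrow, fell by 1.41, Ccnb1 and Ccnb2, the mitotic cyclins, by 1.33 and 1.51, and Plk1, a mitotic kinase, by 1.20. Genes of DNA replication had 18 of 27 lower and 9 not called (median -0.39); Rrm1, a ribonucleotide reductase subunit, fell by 0.76 and Mcm2, a part of the replicative helicase, by 0.49, and under total-count scaling 1 member was called higher.

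Of the G1 cyclins, CDK inhibitors and p53 targets, 19 of 25 fell and 2 rose (median -0.48). Ccnd1, the growth-factor-induced cyclin D1 (chr7:144929931-144939925, minus strand), was at 404 and 377 CPM on glass and at 131 CPM in both 20 kPa libraries (-1.57, SE 0.06; 23.4% of its exonic bases shared). Cdkn1a, which encodes the cell-cycle inhibitor p21 and is a p53 target, fell as well, from 297 and 284 CPM to 150 and 151 CPM. Other p53 targets fell with it, Zmat3 by 0.88, Bax by 0.69 and Pmaip1 by 1.54. Cdkn1c, which encodes the inhibitor p57, rose by 1.36, from 19.1 and 14.8 CPM to 44.3 and 43.6 CPM, with 30.7% of its exonic bases shared with another gene.

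The CHR element, TTTGAA or TTTAAA on either strand, is where the DREAM and MuvB complexes bind late cell-cycle genes. These letters were in 9 of the 12 mitotic genes with a sequence, against 20.9% of tested genes, a short motif with a high background. Aurka, Kif23 and Bub1 held none. Again the share is a description, and a match is not evidence of binding. Mitotic genes that fell are shown, with 1 match of each in capitals.
Cdc20 (chr4:118437344-118437396, minus strand): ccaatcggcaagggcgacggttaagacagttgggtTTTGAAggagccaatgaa
Ccnb1 (chr13:100786488-100786563, minus strand): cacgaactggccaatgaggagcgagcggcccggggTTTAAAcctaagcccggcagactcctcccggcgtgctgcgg
Ccnb2 (chr9:70421681-70421756, minus strand): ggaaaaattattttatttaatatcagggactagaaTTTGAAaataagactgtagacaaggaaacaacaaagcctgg
Mki67 (chr7:135716455-135716530, minus strand): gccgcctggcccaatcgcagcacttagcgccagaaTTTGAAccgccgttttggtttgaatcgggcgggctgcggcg

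Ribosomal protein genes and many genes of the TCA cycle and respiratory chain were lower by small amounts. All 28 cytosolic ribosomal protein genes fell, with a median log2 difference of -0.44 and a range from -0.78 to -0.31. Rps2 went from 2160 and 2010 CPM to 1190 and 1230 CPM, and Rpl14 from 589 and 572 CPM to 393 and 410 CPM. These genes have many processed copies, among which reads may be split. Nucleolar and MYC target genes had 7 of 22 lower and 1 higher, a share of 36.4% under the 41.8% called over all genes (median -0.11). Myc fell by 0.51. The 7 calls became 4 under total-count scaling, and fewer were called without either 20 kPa library. Of the TCA cycle and respiratory chain genes, 16 of 26 fell and 10 did not pass (median -0.21), for example Atp5b by 0.39 and Cs (citrate synthase) by 0.32, and without the first 20 kPa library 9 were called lower. Mitochondrially encoded genes were near their glass level, with 1 of 12 higher and a median of 0.05; without the second glass library 5 were called higher, and without the first 2 were called lower.

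Of the glycolytic and hypoxia-inducible genes, 11 of 29 rose, 9 fell and 9 did not pass (median 0.02). Among glycolytic enzymes, Pkm fell by 0.39, Gapdh by 0.37, from 1950 and 1860 CPM to 1460 and 1470 CPM, and Aldoa by 0.33. Among genes known as hypoxia-inducible, Car9 rose by 1.86, Vegfa by 0.79, from 122 and 121 CPM to 207 and 213 CPM, Pfkfb3 by 1.09 and Egln3 by 1.18. Psat1 and Phgdh, enzymes of serine synthesis, fell by 0.88 and 0.70 within an ATF4 list of which 10 of 22 fell and 5 rose, or 3 without the first 20 kPa library.

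Chaperone and stress lists moved in both directions. In the secretory pathway 15 of 22 genes fell and 3 rose, with Canx lower by 0.48 and Hsp90b1 by 0.40, while Creb3l1, a regulator of collagen secretion, rose by 0.76. Cytosolic chaperones fell in 10 of 20 cases, among them Hspa1b by 1.18 and Cryab by 1.10, and rose in 4, or in 2 without the first glass or the first 20 kPa library and 1 without the second 20 kPa library. Of 25 NRF2 and oxidative stress genes, 12 fell and 7 rose (median -0.15); Sod2, Sod3 and Gpx3 rose by 1.48, 1.24 and 1.42, and Cat (catalase) and Gstm1 fell by 0.82 and 0.93. Lysosomal genes rose in 10 of 24 cases and fell in 3, or 1 without the second 20 kPa library, with Hexa higher by 0.78 and Ctsb, a cathepsin, by 0.49.

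Writers and erasers of histone marks, the subject of the study's question, had lists with medians near that of all genes. Of 17 histone acetyltransferase genes, 3 rose and 1 fell, a smaller share than the 41.8% called over all genes, and the median log2 difference was 0.03. Ep300 was at 109 and 104 CPM on glass and at 109 and 99.7 CPM on 20 kPa (-0.03, SE 0.06; adjusted p = 0.76). Crebbp was at 77.5 and 72.0 CPM against 77.7 and 74.9 CPM (adjusted p = 0.77), and Kat2a at 57.3 and 55.5 CPM against 57.9 and 58.0 CPM (0.04, SE 0.07; adjusted p = 0.70). The groups overlapped for Ep300 and Crebbp. Ncoa1 rose by 0.46 and Kat6b by 0.34, and Kat7 fell by 0.27; without either glass library 2 were called lower.

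Of 19 deacetylase genes, 3 rose and 1 fell, a share of 21.1% under the 41.8% called over all genes (median 0.04). Hdac1 was at 143 and 145 CPM on glass and at 139 and 132 CPM on 20 kPa (-0.08; adjusted p = 0.30). The class IIa deacetylase Hdac9 rose by 1.85 (SE 0.17), from 2.91 and 2.67 CPM to 11.2 and 9.01 CPM, and Hdac11 by 1.23 (SE 0.18). The calls of Hdac5 and Hdac7 were lost under several alternatives, and the number called lower ran from 0 under total-count scaling, without the first glass library or without the first 20 kPa library to 4 without the second glass library, where 5 were called higher.

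Histone methyltransferases rose in 5 of 30 cases and fell in 4, a share of 30.0% under the 41.8% called over all genes (median 0.01). Kmt2e was higher by 0.41, from 129 and 122 CPM to 172 and 162 CPM, and Bmi1, a Polycomb subunit, by 0.44. Ezh2, the catalytic Polycomb subunit, was at 36.5 and 34.6 CPM against 31.4 and 28.7 CPM, with an adjusted p of 0.019 that rose to between 0.055 and 0.20 in 4 alternatives; none of the 4 falls of this list was called under total-count scaling or without the second 20 kPa library. Demethylases were called in 42.1% of cases, near the 41.8% over all genes: of 19, 6 rose and 2 fell, or 0 without the first glass library or the second 20 kPa library. Kdm7a rose by 1.14 (SE 0.08), from 23.5 and 25.9 CPM to 57.3 and 51.3 CPM, and Kdm5b, an eraser of the promoter mark H3K4 methylation, by 0.55; the number higher was 3 without the second glass library and without the first 20 kPa library.

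Of the genes of DNA methylation, 7 of 19 rose, 8 fell and 4 did not pass (median 0.07). Dnmt3a, a de novo methyltransferase, rose by 0.48 and Tet2, which oxidises methylcytosine, by 0.73, from 22.7 and 24.8 CPM to 38.4 and 40.3 CPM. Uhrf1, which brings maintenance methylation to replicated DNA and is itself a replication-phase gene, fell by 0.51. With DESeq2, and without the first 20 kPa library, 4 members were called higher, and without either 20 kPa library 5 were called lower. Among 31 chromatin remodellers and histone chaperones, 10 fell and 4 rose, a share of 45.2% near the 41.8% over all genes (median 0.01; 7 rose without the first glass library and 2 without the first 20 kPa library); the falls included the proliferation-linked H2afz (-0.58), Hmgb2 (-0.60) and Asf1b (-0.81).

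Neuronal genes were for the most part not measurable. Of 25 listed, 14 were below the filter, among them Neurog2, Neurod1 and Myt1l, and 11 were tested. Of these, 4 rose and 3 fell. Nrcam, an adhesion molecule of axons, rose from 4.58 and 6.09 CPM to 17.7 and 15.3 CPM (1.65, SE 0.14), and Tubb3, the neuronal beta tubulin that fibroblasts also make, fell from 36.5 and 35.6 CPM to 20.7 and 21.2 CPM (-0.79, SE 0.09). Stmn2 rose by 1.66 on 0.509 and 0.870 CPM against 2.24 and 2.03 CPM.

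Genes described as barriers to or drivers of reprogramming rose in 10 of 19 cases and fell in 7. Prrx1, a mesenchymal homeobox factor, rose by 0.68, from 360 and 383 CPM to 603 and 588 CPM, Runx1 by 0.84, Snai1 by 0.52 and Zeb2 by 0.58. Klf4 fell by 1.32, from 145 and 129 CPM to 54.5 and 55.4 CPM, and Ptbp1, a splicing repressor of neuronal exons, by 0.40. Under total-count scaling 4 members were called lower. Mesenchymal transcription factors rose in 14 of 23 cases and fell in 1 (median 0.44), with Nr2f1 higher by 1.41, Foxc2 by 0.73 and Osr1 lower by 0.53. Epithelial junction genes fell in 6 of 8 tested cases, such as Tjp1 by 0.56 and Krt19 by 1.10, while Cdh1 and Epcam were below the filter.

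Markers of dermal fibroblast subtypes rose in 12 of 20 cases and fell in 6 (median 0.54). Pi16, a marker of adventitial progenitor-like fibroblasts, rose from 0.740 and 0.986 CPM to 36.6 and 35.4 CPM (5.39, SE 0.16; adjusted p = 3.8e-22). Dpt (dermatopontin) rose by 1.39, Sfrp2 by 1.93 and Smoc2 by 1.55. Other markers of the same progenitor-like cells fell: Cd34 by 1.12, Ly6a by 0.89, Ly6c1 by 1.35 and Clec3b from 49 and 38 counts to 8 and 3. The list did not move as 1 subtype.

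WNT genes rose in 23 of 34 cases and fell in 4 (median 0.60). Wif1 binds WNT ligands outside the cell (chr10:121033960-121100650, plus strand). It was at 1.90 and 1.86 CPM on glass and at 39.0 and 35.4 CPM on 20 kPa. The fitted ratio for Wif1 was 19.7-fold. Sfrp1, another binder of WNTs, rose by 1.47, from 126 and 124 CPM to 348 and 344 CPM, and Notum, which strips the lipid from WNTs, by 2.68. Lef1, a transcription factor of the canonical pathway, rose from 0.601 and 0.870 CPM to 14.2 and 12.7 CPM, and its feedback gene Axin2 by 1.41. Wnt10b and Dkk2 fell by 1.54 and 0.93, and 2 members were called lower without the first glass library or either 20 kPa library.

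BMP genes rose in 18 of 25 cases and fell in 3 (median 0.55). The antagonists Grem1 and Nog rose by 1.10 and 1.35, and the target genes Id1 and Id3 by 0.45 and 0.82. Bmp2 rose from 0.509 and 0.406 CPM to 4.87 and 4.50 CPM, whereas Bmp4 fell by 0.55, a call that 10 of 12 alternatives did not give (adjusted p from 0.052 to 0.21); without the second 20 kPa library 1 member of the list was called lower.

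TGF-beta genes rose in 11 of 23 cases and fell in 5 (median 0.14). Tgfbi, a matrix protein named for its induction by TGF-beta, rose from 102 and 99.5 CPM to 516 and 457 CPM (2.27, SE 0.06), Tgfb1 by 1.16, Inhba by 0.95 and Pmepa1, a feedback inhibitor, by 1.08. Tgfbr2, the ligand-binding receptor, fell by 0.94, from 544 and 491 CPM to 272 and 267 CPM.

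Growth factor genes rose in 22 of 35 cases and fell in 6 (median 0.43), with the insulin-like growth factor axis in front. Igf1 (chr10:87858265-87937042, plus strand) was at 7.35 and 9.51 CPM on glass and at 137 and 127 CPM on 20 kPa. The fitted ratio for Igf1 was 15.8-fold (log2 difference 3.98, SE 0.09). Its binding proteins Igfbp4, Igfbp5 and Igfbp7 rose by 1.59, 1.86 and 1.18, while Igfbp6 fell by 1.56 and the receptor Igf1r by 0.47. Fgf2 rose by 0.90 and Hgf by 1.13, and Vegfd fell by 1.05.

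Retinoid, Notch and hedgehog genes rose in 16 of 28 cases and fell in 4 (median 0.45), or 2 without the first glass library or the second 20 kPa library. Cyp26b1, which breaks down retinoic acid, rose from 87.8 and 83.8 CPM to 303 and 304 CPM, Rbp4, the retinol carrier, from 1.02 and 0.812 CPM to 24.7 and 24.3 CPM, and Hhip, an antagonist of hedgehog ligands, by 2.98. Cyp26a1 had no count on glass and 21 and 27 counts on 20 kPa, at least 7.48-fold higher. Guidance genes rose in 19 of 37 cases and fell in 6, with Ntn1 (netrin 1) higher by 1.20, Plxnd1 by 1.53, Epha7 by 2.55 and Epha2 lower by 0.56.

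Immediate early and ERK feedback genes were even, with 12 of 31 higher and 12 lower. Nr4a2, an orphan nuclear receptor, rose by 2.10, from 28.2 and 27.1 CPM to 120 and 117 CPM, and Fosb by 1.52, while Dusp1, a MAP kinase phosphatase, fell by 0.82 and Klf2 by 0.74. Egr1 had a log2 difference of -0.04 without a call. Clock genes rose in 8 of 18 cases and fell in 4, with Nr1d1 higher by 0.53 and Cry2 and Per3 lower by 0.58 and 0.55; 5 were called higher with DESeq2 and without the first 20 kPa library.

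Markers of other cell types that an ear preparation could hold moved with the substrate as well. Chondrocyte markers, 17 of 18 tested, rose in 15 cases and fell in 2, with summed levels of 1120 and 1050 CPM on glass and 2660 and 2590 CPM on 20 kPa. Col2a1, the collagen of cartilage, was at 153 and 133 CPM against 531 and 505 CPM, Acan (aggrecan) at 59.2 and 51.9 CPM against 220 and 205 CPM, and Matn4 (chr2:164389393-164405160, minus strand) at 30.7 and 24.6 CPM against 315 and 334 CPM. The lineage factor Sox9 was lower on 20 kPa by 0.18, at 285 and 286 CPM against 252 and 251 CPM; total-count scaling and the omission of either 20 kPa library ended this call and left the list with no faller (adjusted p from 0.063 to 0.068). Matn1 had 4 and 4 counts on glass and 0 and 0 on 20 kPa. The part of such cells in the rises of collagen and proteoglycan genes above was not tested.

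**Figure D4:**
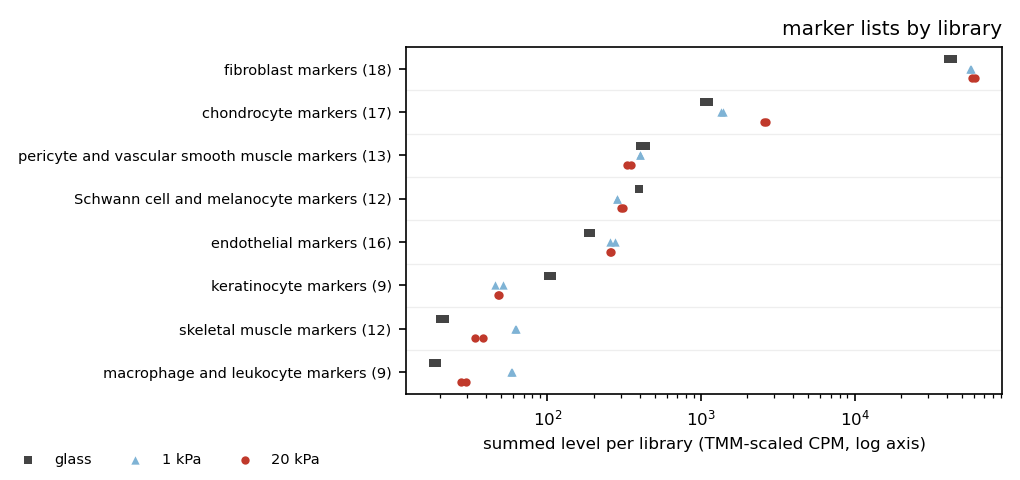
Summed CPM (log axis) of the tested members of 8 marker lists in each of the 6 libraries. Fibroblast markers lie between 40500 and 60800 CPM in all libraries, chondrocyte markers are highest on 20 kPa, and macrophage and skeletal muscle markers reach at most 62.1 CPM.

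The remaining marker lists were low in sum. Keratinocyte markers fell in 7 of 9 tested cases and rose in 1, from sums of 101 and 108 CPM to 47.6 and 48.1 CPM; Krt14 was at 2.73 and 3.54 CPM on glass and at 0.341 and 0.242 CPM on 20 kPa, Krt1 had no count in these 4 libraries, and Perp, which is also a p53 target, made up most of the sum on glass. Endothelial markers rose in 12 of 16 cases, from 192 and 185 CPM to 260 and 256 CPM, with Pecam1 at 1.99 and 2.84 CPM against 6.97 and 6.44 CPM and Cdh5 at 4.90 and 4.52 CPM against 6.68 and 7.56 CPM, a call lost without the second 20 kPa library (adjusted p = 0.070); 1 member, Tek, was called lower in 8 alternatives. Macrophage and leukocyte markers summed to 18.1 and 19.1 CPM on glass and 29.6 and 27.6 CPM on 20 kPa, with 3 of 9 higher and 1 lower (Csf1r, not called without the second glass or the second 20 kPa library), and the pan-leukocyte gene Ptprc had 3 to 5 counts in each of the 4 libraries. Of the tested macrophage and leukocyte markers, 44.4% were called, near the 41.8% over all genes. The part of such cells in the rises of inflammatory and complement genes was not tested.

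Skeletal muscle markers rose in 8 of 12 tested cases, from 21.5 and 20.1 CPM to 38.1 and 34.0 CPM, with Myod1 at 0 counts in both glass libraries and 6 and 0 on 20 kPa. Pericyte and smooth-muscle markers, of which 6 of 13 fell and 4 rose (2 with a stricter filter), summed to 442 and 399 CPM against 348 and 331 CPM; this list shares Myh11, Actg2, Lmod1 and Cnn1 with the contractile set, and Rgs5 had 1 to 15 counts. Schwann cell and melanocyte markers rose in 9 of 12 cases and fell in 2, with sums of 393 and 395 CPM against 312 and 300 CPM, to which Pmp22 contributed most. Their part in the results above was not tested.

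A direct test of 20 kPa against 1 kPa, from the same fit, shows where the intermediate gel differed from the softer one. It called 3035 genes (18.9%), 1438 higher (8.94%) and 1597 lower (9.92%) on 20 kPa. On 20 kPa, 12 of 17 chemokine ligands, 17 of 22 cytokines and acute-phase genes and 19 of 20 NF-kB genes were lower than on 1 kPa. Cxcl1 was at 595 and 599 CPM on 1 kPa, or 2.24 log2 units above 20 kPa (SE 0.06; adjusted p = 2.7e-22). Lcn2 was at 1170 and 1200 CPM, Mmp3 at 6460 and 6360 CPM and Il6 at 140 and 133 CPM on 1 kPa, so that 20 kPa lay between glass and 1 kPa for all 3. Nos2, the inducible nitric oxide synthase, was at 2.83 and 2.32 CPM on 20 kPa and at 133 and 130 CPM on 1 kPa.

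**Figure D5:**
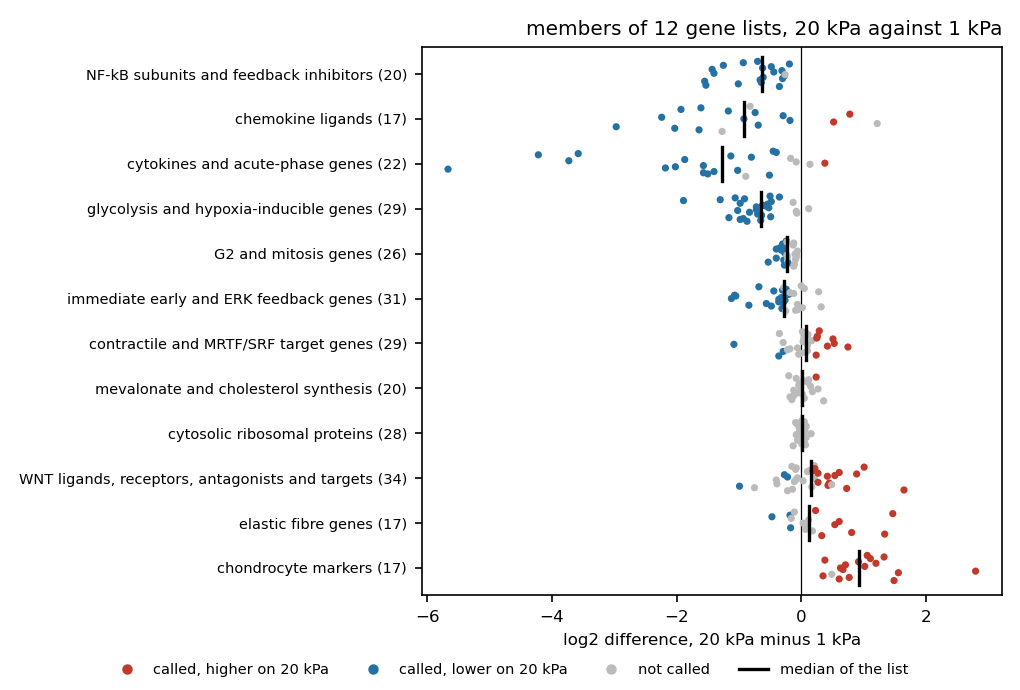
Log2 difference (20 kPa minus 1 kPa) of each tested member of 12 gene lists, with a bar at the median. Inflammatory and hypoxia-inducible lists lie under 0, chondrocyte markers lie above it, and ribosomal protein genes lie at it.

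Hypoxia-inducible and glycolytic genes were lower on 20 kPa than on 1 kPa in 25 of 29 cases, with Car9 at 67.8 and 67.7 CPM on 20 kPa and a log2 difference of -1.30, Vegfa at -0.87 and Slc16a3, a lactate exporter, at -1.16. Mitotic genes were lower in 14 of 26 cases, such as Plk1 by 0.53 and Ccnb2 by 0.40. Immediate early genes were lower in 19 of 31 cases. Of the 20 cholesterol genes, 1 differed between the gels, Cyp51, which was higher on 20 kPa by 0.24.

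Chondrocyte markers were higher on 20 kPa than on 1 kPa in 16 of 17 cases and WNT genes in 13 of 34, with 3 of the latter lower. Matrix lists went both ways between the gels. Elastic fibre genes had 7 higher and 3 lower of 17 and matricellular genes 8 higher and 3 lower of 24, whereas collagens had 5 higher and 6 lower of 19 and small proteoglycans and basement membrane genes 5 higher and 7 lower of 22. Crosslinking enzymes had 3 higher and 8 lower of 20, and proteases and inhibitors 4 higher and 14 lower of 25. Eln was 1.47 log2 units higher on 20 kPa than on 1 kPa (adjusted p = 4.4e-18), Col8a2 1.98, Postn 1.11, Aspn 1.75 and Igfbp5 1.04. Among the steepest were Matn3 (2.80), C1qtnf3 (2.45), Chrdl2, an antagonist of BMPs (2.43), and Slc40a1, the iron exporter ferroportin (2.29, at 26.5 and 27.1 CPM against 5.17 and 5.83 CPM on 1 kPa). Ogn, the proteoglycan osteoglycin (chr13:49608046-49624501, plus strand), was at 318 and 302 CPM on 20 kPa, 72.6 and 64.5 CPM on 1 kPa and 203 and 272 CPM on glass; its difference from glass (0.39) was not called with DESeq2 (adjusted p = 0.10). Of the contractile genes, 8 of 29 were higher on 20 kPa than on 1 kPa and 3 lower, Acta2 by 0.29 and Zyx by -0.36. Yap1 and Wwtr1 were not called between the gels (adjusted p = 0.13 and 0.055).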

How the data were processed

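Gene counts were deposited by the authors as whole numbers in 1 table of 57010 identifiers and 6 libraries; per the submitters' processing notes, reads were handled with cutadapt and Trim Galore, STAR 2.7.10b and featureCounts on mm10. The annotation, the settings and whether counting used strand were not given in the sources used here. Library totals of 17669006 to 21350111 counts set the precision, and the floor for a gene without counts was 3 counts a library. Symbols and coordinates came from GENCODE M21, which matched 91.3% of identifiers.

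The 6 libraries were fitted together in edgeR 4.0.16 (filterByExpr by group, TMM scaling, quasi-likelihood test, 3 residual degrees of freedom). The contrasts were 20 kPa minus glass and 20 kPa minus 1 kPa, and every adjusted p is Benjamini-Hochberg adjusted over all 16093 genes tested, with 0.05 as the threshold. Log2 differences are fitted values, and fitted ratios are these differences taken off the log2 scale. Levels are TMM-scaled CPM computed here. SE is the log2 difference divided by the root of the F statistic. The script was tested on simulated data. DESeq2 1.42.0, limma 3.58.1 (voom), other scalings and filters, a replicate block and leaving out each library were the alternatives.

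The comparison and the 68 gene lists (1503 entries) were chosen with earlier results of these data known. Genes named were the 15 largest rises and falls, the 10 largest gains and losses in CPM and the 10 highest and lowest against 1 kPa (called, at least 5 CPM in the higher group, no overlap between groups), up to 8 members of each list by smallest p, a fixed set of 20 genes, and up to 4 promoters a motif. A further 41 list members were added after their values were seen, as were the markers and neuronal genes below the filter.
Some items withheld for evaluation are not reported here.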

Additional observations from a re-analysis of the deposited data

Results flagged for a closer look

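Some genes moved in opposite directions on the 2 gels relative to the same glass libraries, with both changes called. There were 108 such genes, of which 60 were higher on 20 kPa and lower on 1 kPa, and 48 the reverse. The 3 clearest in each direction are given, and for these the direct contrast between the gels was called as well. That contrast is the difference of the 2 changes by which the genes were picked. Its size and adjusted p, here and in the next paragraph, follow from that choice and are not separate evidence. Omd, which encodes the keratan sulfate proteoglycan osteomodulin (chr13:49582462-49592822, plus strand), was at 10.2 and 15.6 CPM on glass, 4.63 and 5.16 CPM on 1 kPa and 25.3 and 26.8 CPM on 20 kPa, a log2 difference of 2.42 between the gels (edgeR, adjusted p = 2e-13). Rab11fip4, an effector of recycling endosomes, was at 10 and 10.5 CPM on glass, 5.60 and 4.71 CPM on 1 kPa and 21.1 and 21.3 CPM on 20 kPa (2.03; edgeR, adjusted p = 3.5e-13). Neither gene had overlapping groups. Fam180a was at 2.91 and 3.42 CPM on glass, 1.61 and 1.35 CPM on 1 kPa and 4.53 and 5.86 CPM on 20 kPa (1.80).

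In the other direction, Traf1, an adaptor of TNF receptors, was at 6.38 and 5.68 CPM on glass, 8.82 and 8.74 CPM on 1 kPa and 4.19 and 4.50 CPM on 20 kPa, a log2 difference of -1.01 between the gels (edgeR, adjusted p = 2.2e-05). Stx11, a syntaxin of immune cells, was at 10.6 and 11.3 CPM, 13.6 and 16.8 CPM and 8.48 and 7.07 CPM in the same order (-0.96). Ptgs2os2, an antisense RNA beside Ptgs2, was at 5.22 and 6.79 CPM, 8.33 and 7.85 CPM and 4.19 and 4.36 CPM (-0.92), and the strand of counting is not given in the sources used here. The difference from glass on 20 kPa was not called in at least 1 alternative for Fam180a, Traf1, Stx11 and Ptgs2os2 (adjusted p from 0.057 to 0.29).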

How the results depend on the processing

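Under the 12 alternatives 5118 to 6736 genes were called between 20 kPa and glass, against 6732, and every call shared with that fit kept its direction. DESeq2 called 5253 genes (5250 shared), limma-voom 6678, total-count scaling 6482, RLE size factors 6736, no filter on low counts 6513 and a stricter filter 6549. Leaving out 1 library gave 5118 to 6267 calls. Of 580 named genes called, 537 were called under all 12 alternatives, 43 lost the call under at least 1, and 0 reversed. The named genes were mostly picked for size or small p in these same libraries, so these counts do not measure how well other calls hold. Same-numbered deviations from the group means correlated at -0.035 to -0.016 across genes, so no shift shared by replicate number was seen. This cannot tell whether same-numbered libraries were made together, which the labels do not state. With a replicate block 6526 genes were called, 6502 of them shared. Depth limits genes of a few counts, and the 2 libraries a condition limit every estimate of spread.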
